A study of Homo sapiens with 4 samples.

Results

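Outside the large tRNA gene clusters, 161 regions of the genome held a peak of HA-tagged SOX4 in every one of 3 immunoprecipitations. They were found by pooling the 3 deposited peak lists, merging peaks that overlapped by at least 1 bp into 862 regions, keeping the 263 (30.5%) with a peak in all 3 lists, and dropping the 102 that touched any of 12 windows on 8 chromosomes drawn around tRNA gene clusters. The 161 that remain are 61.2% of the shared regions and 22.6% of the merged regions outside the windows. Since the rule asks for a called peak in each list, the members were chosen by the authors' peak calls, and so by the fold, pileup and q of these same samples, which are given here as a description.

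The samples came from U251, an established human glioblastoma line, in which HA-tagged SOX4 was overexpressed. All were taken 3 days after virus infection. IP 1, IP 2 and IP 3 are immunoprecipitations that used anti-HA antibody, and 1 input of sheared chromatin from the same kind of cells served as background for all of them. The input therefore carries the overexpressed SOX4 as well. No immunoprecipitation from cells without the tagged protein was analysed here, and the protein measured was an overexpressed tagged form in 1 cell line. The replicate libraries are labelled as independent immunoprecipitations, with nothing on separate cultures or infections, so each SD measures the spread between these immunoprecipitations, which may be technical.

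SOX4 is a transcription factor of the SOX family. Its HMG box binds the minor groove of DNA at short cores rich in adenine and thymine and bends it, and the protein is known from progenitor cells, from the developing nervous system and from glioma. RNA polymerase III transcribes tRNA genes from promoter elements inside the gene, whereas RNA polymerase II transcribes messenger RNAs and most small nuclear RNAs from promoters upstream of the start. Of the tRNA genes, the windows removed the large clusters only. The windows are stretches of chromosome that hold other genes too, such as histone genes in the one on chromosome 6, where 53 of the dropped regions lie. Which dropped regions lie at a tRNA gene was not counted. Single tRNA genes and small groups of them lie elsewhere in the genome too, and how many of the 161 regions lie at one was not counted.

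No hg19 gene annotation was used. Where a gene is named below beside a region, the placement rests on general knowledge of the hg19 gene map and not on a file, no distance was measured, and the name is background. The 14 genes so named are all in the RefSeq table, each on the chromosome of its region.

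Of the 5 strongest members, 4 stand at the start of a protein-coding gene by that knowledge. The share at gene starts was not counted for all members or merged regions, so this does not set the 5 apart. The highest region, at TNRC18, which encodes a large protein with a BAH domain, and the second, at FZD1, which encodes a Frizzled receptor for Wnt ligands, are followed by FZD2 at rank 4 and MTF2 at rank 5. MTF2 encodes an accessory subunit of Polycomb repressive complex 2. For TNRC18, FZD1 and MTF2 the 250 bases just before the RefSeq start are shown (GRCh38.p14, matched by symbol, written 5′ to 3′ in the direction of the gene, which is on the minus strand for TNRC18 and the plus strand for the other two), since a SOX protein would be looked for at its core motif there. Capitals mark matches, on either strand, to either of the HMG-box cores searched, which were CTTTGT and also ATTGTT. The match before TNRC18 is the second core read on the opposite strand.

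TNRC18: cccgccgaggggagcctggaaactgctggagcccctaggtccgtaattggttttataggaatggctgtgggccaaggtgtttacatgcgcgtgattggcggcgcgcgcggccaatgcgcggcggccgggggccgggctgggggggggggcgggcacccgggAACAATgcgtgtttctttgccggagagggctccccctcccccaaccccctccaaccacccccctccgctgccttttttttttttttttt

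FZD1: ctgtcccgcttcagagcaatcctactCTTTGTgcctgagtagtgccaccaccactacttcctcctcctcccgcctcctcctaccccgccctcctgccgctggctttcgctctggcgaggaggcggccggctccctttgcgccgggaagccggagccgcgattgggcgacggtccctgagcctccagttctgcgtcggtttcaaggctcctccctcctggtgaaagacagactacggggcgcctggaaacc

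MTF2: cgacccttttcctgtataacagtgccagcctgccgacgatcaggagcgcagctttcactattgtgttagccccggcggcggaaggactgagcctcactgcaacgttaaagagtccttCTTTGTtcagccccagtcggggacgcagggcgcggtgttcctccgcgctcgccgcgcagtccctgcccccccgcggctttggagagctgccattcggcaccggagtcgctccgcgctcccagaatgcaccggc

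Each of these stretches held 1 match. It lay 89 to 84 bases before the start of TNRC18, 224 to 219 bases before that of FZD1 and 133 to 128 bases before that of MTF2. Of 35116 RefSeq starts, 13.7% had CTTTGT and 8.98% had ATTGTT in the same 250 bases on either strand, and 20.9% had at least 1 of them. SSBP2, named at the region of rank 7, has 4 starts in the table and neither core before any of them. MALAT1, named further below at a region with few reads, has 2 starts, each with CTTTGT on the opposite strand. The tRNA B box, searched by its inner letters GTTCGANNC on both strands (a length chosen later than the full motif), was in 0.672% of these stretches and in none of those of the 5 named genes that have sequence. At so low a share a match in the 9 starts of these genes was unlikely from the outset. The B box lies inside tRNA genes, so its absence there says nothing of tRNA genes at the members. FZD2 has no entry. The matches are letters in a window of another build, chosen through genes already known to be at strong peaks, and were not tied to a summit.

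At the TNRC18 region, chr7:5465100-5465463 (hg19, as are all positions of regions), the 3 immunoprecipitations, in order, gave a fold enrichment of 25.7, 27.4 and 27.0, and folds below follow this order. Fold enrichment here is the authors' ratio of the pileup of extended reads at the summit to the local input background, each with 1 added. The mean was 26.7 ± 0.93 (SD, n = 3), on pileups of 140, 142 and 136 reads. The 3 values lie close together and above every other member's mean. A weaker region 1562 bp away by summit, chr7:5463592-5463847, had 11.7, 17.5 and 10.8-fold, so IP 2 stood apart from the other two there but not at the stronger site.

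At the FZD1 region, chr7:90893554-90893875, the folds were 23.5, 24.5 and 23.9, a mean of 24.0 ± 0.48 (SD, n = 3). At the FZD2 region, chr17:42634501-42634824, they were 28.0, 15.8 and 21.6, a mean of 21.8 ± 6.07. The Frizzled regions thus had like means, with a spread over 10 times wider at FZD2, where IP 1 was the highest value of any member and IP 2 was below the 17.5 of the rank 6 region in the same list. Other genes of the Wnt list were not placed, nor was any gene of the list of SOX genes and reported SOX4 targets.

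The MTF2 region, chr1:93544565-93544895, had folds of 22.1, 18.6 and 20.1 (mean 20.3 ± 1.74, n = 3). The region at rank 3, chr17:79367674-79368003, is left without a gene name and had folds of 23.9, 25.8 and 20.3 (mean 23.4 ± 2.84, n = 3). These 5 are the only members with a mean of 20 or more, and none of the 102 regions inside the windows reached it. Their summits agreed to within 10 to 23 bp between the lists, and their pileups ran from 54 to 142 reads. The local background under them was 1.61 to 3.13 times the genome average, on either side of the median member's 1.98.

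**Figure D1:**
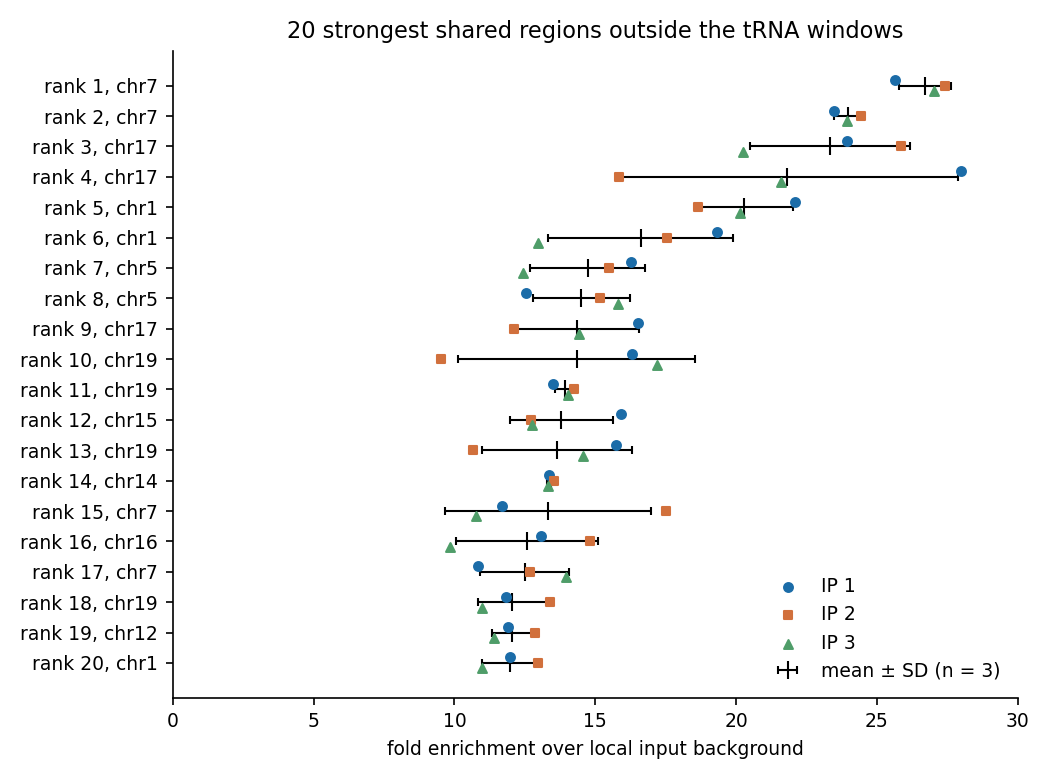
Fold enrichment over the local input background in IP 1, IP 2 and IP 3 (coloured points) with the mean and SD of the 3 (black) for the 20 members with the highest mean, named by rank and chromosome. The first 5 have means of 20.3 to 26.7 and the other 15 have means of 12.0 to 16.6, with the widest spread at rank 4 on chromosome 17.

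Ranks 6 to 20 had means of 12.0 to 16.6, and rank 21 followed at 11.8 without a step. At rank 6, chr1:17293846-17294158 had 19.3, 17.5 and 13.0-fold, falling in IP 3. Next came 2 regions on chromosome 5, at the start of SSBP2, a gene for a single-stranded DNA binding protein that acts as a transcriptional cofactor, and upstream of it. The first, chr5:81047099-81047475, had folds of 16.3, 15.5 and 12.4 (mean 14.7 ± 2.04). The second, chr5:81147628-81147945, had 12.5, 15.2 and 15.8 (mean 14.5 ± 1.73). The SSBP2 regions lie 100153 bp apart with means that differ by less than either SD, and the immunoprecipitation that was lowest at one was highest at the other.

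Of the 20, 10 were also among the 20 highest of every single list, and the first 5 by mean were the first 5 in IP 1 and in IP 3, with 4 of them so in IP 2. The weakest call among the 20 was a −log10 q of 14.3, in IP 2 at chr19:5308963-5309286. That region had 16.3, 9.52 and 17.2-fold on pileups of 40, 22 and 39 reads. By contrast, chr19:1383270-1383934 on the same chromosome had 13.5, 14.3 and 14.04-fold. Neighbours in the order below the first 5 mostly differ by less than their SDs, so their order is not firm. From rank 2 to rank 5 the means ran from 24.0 to 20.3 beside SDs of up to 6.07, so the order there is not firm either.

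Over all 161 members the mean fold had a median of 7.79, quartiles at 6.27 and 10.2, and extremes of 2.78 and 26.7. There were 42 members (26.1%) with a mean of 10 or more, against 35 (34.3%) of the 102 shared regions inside the windows. At least 10 in every list was reached by 22 members and by 20 of those 102 regions. A −log10 q of 10 or more in all lists was met by 78 members (48.4%), against a background of 57.4% of all shared regions. Within a member the highest fold was a median of 1.34 times the lowest and at most 2.42 times. The coefficient of variation over the 3 lists had a median of 15.3% and ran from 0.838% to 42.4%.

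IP 3, the shallowest with 19228143 tags against 24037735 in IP 1 and 23683012 in IP 2, gave the lowest fold at 71 members and the highest at 31. IP 1 gave the highest at 63 and IP 2 at 67. Across the 161 members Spearman's rho of the fold was 0.71 for the first list with the second, 0.75 for the first with the third and 0.71 for the remaining pair. The background alone gave 0.89, 0.92 and 0.89, since all calls share the input, so these values describe the lists and carry no p.

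The steadiest members were chr1:35658619-35658890, with 7.53, 7.66 and 7.58-fold, and chr14:50328805-50329463, with 13.3, 13.5 and 13.3-fold (coefficients of variation 0.838% and 0.856%). The second lies at RN7SL2, an RNA polymerase III gene for the RNA of the signal recognition particle, and is 659 bp wide, more than the median member's 313 bp. The most variable were 3 regions on chromosome 15, with coefficients of variation of 40.5% to 42.4%. At chr15:86323329-86323807 IP 1 stood out with 7.60-fold against 3.25 and 4.75, and at chr15:50647235-50647706 IP 3 did, with 9.16 against 4.50 and 5.08. The third, chr15:31572255-31572746, was low in IP 2 at 3.36-fold against 8.11 and 7.18, where the recovered background was 6.06 times the genome average in IP 2 against 2.88 in IP 1 and 3.15 in IP 3. The part of the background in that fold was not tested further.

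The other RNA polymerase III genes that were placed appear at moderate enrichment. Single tRNA genes at members were not counted, so this does not give the level of the class. A chain of 3 members on chromosome 5 lies at the vault RNA genes VTRNA1-1, VTRNA1-2 and VTRNA1-3, which encode small RNAs of the vault particle. At chr5:140090759-140091088 the folds were 6.73, 9.85 and 6.38, at chr5:140098372-140098704 they were 10.5, 9.08 and 6.53, and at chr5:140105687-140105935 they were 6.50, 10.5 and 6.26. The vault RNA means of 7.66, 8.72 and 7.76 differ by less than any of their SDs (1.91 to 2.40). The only other chain of 3 within 50 kb, on chromosome 12, lies where a small group of tRNA genes is known. Its members had means of 10.9 ± 2.70 at chr12:125406196-125406498, 11.2 ± 1.92 at chr12:125412287-125412635 and 8.76 ± 0.91 at chr12:125424074-125424737.

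Of the spliceosomal small nuclear RNA genes, whose transcripts build the splicing machinery, those placed here appear near the low end. Other genes of that list were not placed, so the level of the class is not known. At RNU5A-1, chr15:65588385-65588713, the folds were 7.26, 5.34 and 5.86. At RNU5B-1, chr15:65596961-65597424, they were 5.67, 4.69 and 5.39, with summits of the lists up to 309 bp apart. At RNU4-2, chr12:120729355-120729691, they were 5.53, 4.71 and 4.14. All 3 regions have means under the first quartile of members. Near-identical copies exist of these RNA genes and of RN7SL2, and the sources used here do not say how reads with several good positions were handled, so peaks there are uncertain.

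The weakest member by fold was chr11:62608829-62609239, at RNU2-2, with folds of 2.32, 3.42 and 2.60. Its pileups of 46, 56 and 45 reads were above the members' medians of 31, 29 and 25. The low fold goes with a background of 13.3, 11.5 and 13.1 times the genome average, the highest of any member. A further member on chromosome 11, chr11:65266356-65266697, lies within MALAT1, a gene for an abundant nuclear long noncoding RNA. It had 8.0, 8.32 and 5.70-fold on only 19, 19 and 12 reads, with a background of 1.00 to 1.03 times the genome average. These regions show how far fold and pileup part. The first has many reads on a high input and the second few reads on a background near the lowest the caller allows.

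**Figure D2:**
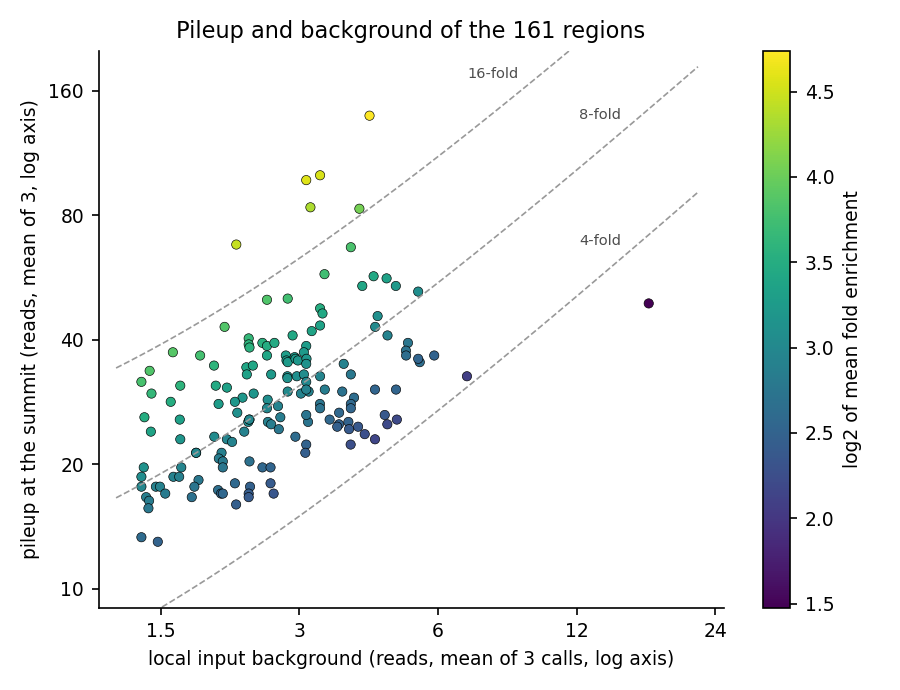
Pileup at the summit against the recovered local input background, both in reads, averaged over the 3 calls and on log axes, for the 161 members, coloured by log2 of the mean fold; dashed lines mark 4, 8 and 16-fold. The region with the highest background lies far to the right under the 4-fold line. The 5 strongest members lie above the 16-fold line, at backgrounds of 1.61 to 3.13 times the genome average. The rank 6 region, with a mean of 16.6, lies just above that line too.

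Outside the windows, shared regions stood alone more often, and where they had company it was mostly 1 close neighbour. Of the 161 members, 30 (18.6%) had another within 50 kb, against 95 of the 102 regions inside the windows (93.1%), a contrast that the choice of windows around clusters builds in. Of those 30, 22 form 11 pairs less than 2 kb apart (a distance chosen after the positions were seen), with mean summits 389 to 1790 bp from each other and a median of 733 bp. The pairs lie on chromosomes 1, 2, 7, 8, 12, 15, 16 and 19. How many of them lie at neighbouring tRNA genes outside the windows was not counted, so they may repeat such grouping on a smaller scale.

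The stronger member of a pair had 1.09 to 2.02 times the mean fold of the weaker, with a median of 1.21, and was higher in all 3 lists in 8 of the 11 pairs. The ranges of mean ± SD did not overlap in 6 pairs. The stronger member was picked by its mean over these same lists, which favours both counts, so they are a description. The widest ratios were on chromosome 2, where chr2:157257108-157257511 had a mean of 11.8 ± 0.53 and chr2:157257573-157257824 had 5.80 ± 0.62, and at TNRC18, where the means were 26.7 and 13.3. On chromosome 12, chr12:98897922-98898192 had 9.40 ± 0.50 and chr12:98897134-98897455 had 5.77 ± 1.09. The closest were chr2:27273959-27274293 at 8.35 ± 0.56 and chr2:27273535-27273790 at 7.67 ± 2.15, where the stronger by mean was higher in only 1 list.

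**Figure D3:**
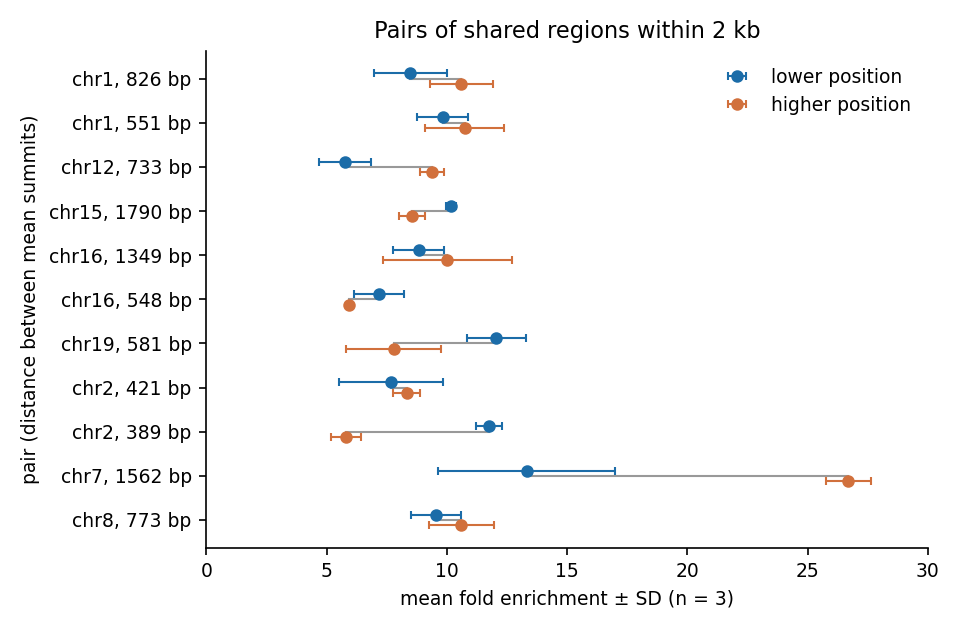
Mean fold enrichment ± SD over 3 immunoprecipitations for the 11 pairs of members within 2 kb, named by chromosome and by the distance between their mean summits; blue marks the region at the lower position and orange that at the higher. The pairs at 389 bp on chromosome 2 and 1562 bp on chromosome 7 are the most unequal.

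Compared with the shared regions inside the windows, members had lower typical enrichment and a longer upper tail. The median fold was 8.11, 8.40 and 7.35 in IP 1, IP 2 and IP 3 outside the windows, and 10.2, 8.83 and 8.50 inside. Outside minus inside, the difference was -1.23 ± 0.85 (SD, n = 3) and negative in every list. The regions of both classes were chosen by calls on these same folds, and an exact two-sided sign-flip permutation over 3 immunoprecipitations cannot go below p = 0.25, so the difference is a description. Among peaks with a −log10 q of at least 10 the difference turned to 0.16. The recovered background was higher outside by 0.24 ± 0.14 reads (SD, n = 3), but by 0.04 with regions defined without IP 3 by 0.11 without IP 1 and by 0.42 at the stricter q, and its part in the fold was not tested. The highest fold in any list was 28.0 outside and 18.8 inside. Of the 20 highest of all shared regions, 13 were members (the first 6 among them), a share of 65.0% where members are 61.2% of all shared regions.

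The 3 summits of a member spread over a median of 36 bp, against 39 bp inside the windows, and lay within 50 bp at 101 members (62.7%) against 64 of 102 regions (62.7%). With regions defined without IP 2 the members' median was 21 bp, and without IP 1 or IP 3 it was 25 bp, where 2 summits in place of 3 make the spread smaller by construction. At 4 members the spread was over 200 bp. A single peak of each list made up 157 of the members, and the other 4 held more than 1 peak of a list.

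**Figure D4:**
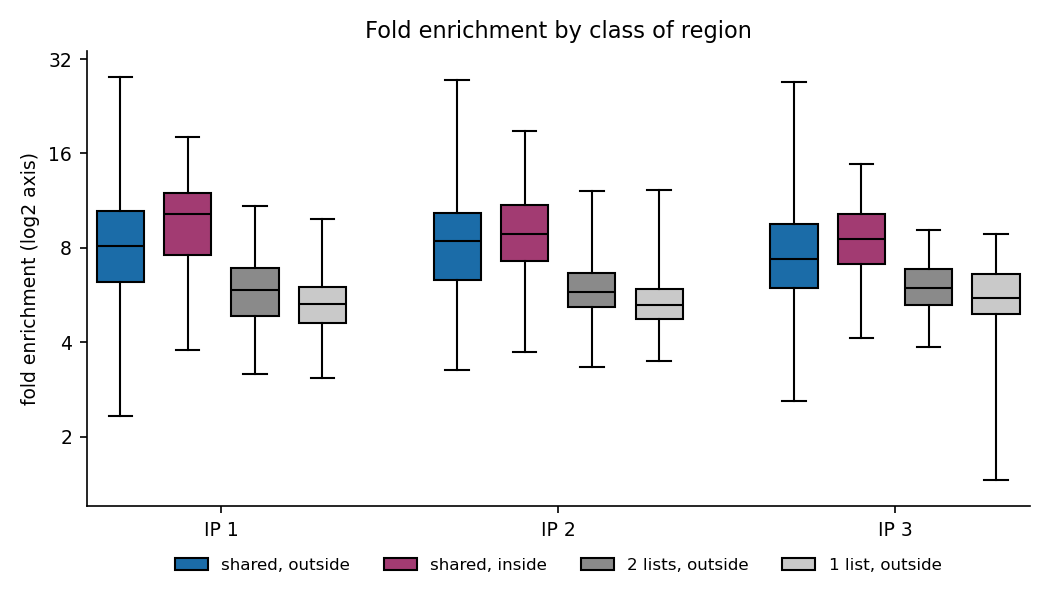
Fold enrichment (log2 axis) in each immunoprecipitation for 4 classes of merged region, with the median (line), quartiles (box) and lowest and highest value (whiskers). The shared regions outside the windows have a lower median than those inside in all 3 lists and the highest maxima, and the regions of 2 lists or 1 list lie lower, as the calling threshold favours.

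A peak in all 3 lists was found at 22.6% of the 711 merged regions outside the windows and at 67.5% of the 151 inside, against 30.5% of all merged regions. The rule itself uses these calls, so the shares describe and test nothing. The members closest to the threshold were chr2:232573006-232573342, with a −log10 q of 5.98, 1.56 and 7.63, and chr15:86323329-86323807, with 15.9, 2.34 and 7.0. In each, IP 2 was the weak list, as it was at chr19:46544507-46544748 with 2.78. The next in order, chr11:62608829-62609239 and chr4:65283833-65284054, were weakest in IP 1, at 2.84 and 2.93. Just outside the rule are 132 regions of exactly 2 lists, with a median mean fold of 5.99. The strongest is chr7:21963311-21963540, with 10.9-fold in IP 1, 12.1 in IP 2 and no call in IP 3. IP 3 was the missing list at 74 of the 132, IP 2 at 35 and IP 1 at 23. A mean fold at or above the median member was reached by 9 of them (6.82%), where the mean leaves out the list with no call.

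The members lay on 22 chromosomes. Chromosome 1 held 23, chromosome 15 held 16, chromosome 19 held 15 and chromosome 12 held 14, together 68 of 161 (42.2%), while they hold 249 of the 711 merged regions outside the windows (35.0%). On chromosome 1 the shared part was 19.7%, below the 22.6% of all chromosomes. Chromosome 6, which holds 53 of the dropped regions, kept 6. Of the merged regions outside the windows, 41.7% were shared on chromosome 16, 37.5% on chromosome 14 and 36.8% on chromosome 12, but 7.5% on chromosome 3 (3 of 40) and 0% on chromosome 18 (0 of 10). With 10 to 50 regions on most chromosomes these shares are coarse. Chromosomes 17 and 7, with 10 and 11 members, had the highest medians of the mean fold among chromosomes with at least 10 members, at 10.5 and 10.3.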

How the data were processed

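Peaks were measured in 3 anti-HA immunoprecipitations, against 1 input with no list of its own. Per the submitters' processing notes, the build was hg19, with alignment tool Bowtie2 2.3.3.1 and Picard 2.10 among those named. Each list was called by the authors on its own with MACS2 2.1.1.20160309 at a q threshold of 0.05, per the file headers, on filtered alignments without duplicates, from 24037735, 23683012 and 19228143 tags and 28755427 input tags. The larger library was scaled to the smaller, and the background came from windows up to 10 kb. The deposited pileup is a signal in reads, the deposited fold enrichment is the authors' ratio, and the deposited −log10 p and −log10 q values are the authors'. The deposited positions are counted from 1.

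With Python 3.11.15, pandas 2.3.3 and SciPy 1.17.1, peaks were merged by 1 bp overlap, the highest fold per list was kept, and the background was recovered as (pileup + 1) / fold − 1. The merging was tested on simulated data. Medians outside and inside the windows were set side by side per immunoprecipitation; the planned exact sign-flip test has too few lists to pass a threshold. The regions described by a set rule are from the 20 of highest mean fold, the extremes of fold, variation and q, chains of 3 or more and genes of fixed lists. The strongest region of exactly 2 lists was also part of it. Pairs within 2 kb were added later, and the region at MALAT1, a gene in none of the lists, was picked outside the rule. Members and lists were chosen with earlier results of these data known. Comparisons with gene starts and motifs at peaks were not run, since no hg19 genome was used. Alternatives covered q, overlap, fold, windows, distance and each immunoprecipitation left out.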

Additional observations from a re-analysis of the deposited data

How the results depend on the processing

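At a −log10 q of at least 10 the number of members fell to 78, those with another within 50 kb to 15, the median fold (7.95 ± 0.54 over the 3 lists as reported) became 9.97, and the difference outside minus inside the windows reversed to 0.16; fewer and stronger peaks enter by construction. With any 1 immunoprecipitation left out, 184 to 236 regions were common to the remaining pair, with a median fold of 7.04 to 7.54, a difference in fold of -1.97 to -1.07 and 31 to 44 regions with a neighbour within 50 kb. The difference in fold stayed negative under the other alternatives run, and that in background stayed positive, between 0.04 reads without IP 3 and 0.42 at the stricter q. A reciprocal overlap of 50% gave 152 members, a fold of at least 4 gave 154, and windows widened by 50 kb gave 161. The median summit range of 36 bp was 21 to 25 bp with 1 immunoprecipitation left out, when fewer summits enter, and 30 bp at the stricter q. Taking the lowest fold within a region moved chr12:125424074-125424737 from 8.76 to 7.90. The alternatives for gene starts and for motifs at summits were not run, as they need an hg19 genome. The differences outside minus inside were taken within each immunoprecipitation. Pairing each immunoprecipitation with an input of its own was not possible, because all share 1 input, which has no list. At the weak end a member's peak can rest on 11 reads, so the absence of a call does not show absence of SOX4. The part of depth in missing calls was not tested.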
